A study of Mus musculus with 6 samples.

Results

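The cytochrome P450 genes of mouse colon are described here, taken as all rows whose symbol is Cyp followed by a family number, a subfamily letter and a gene number. The pattern found 51 of the 20594 genes in the table and took no account of measured values. It leaves out 4 other symbols that begin with Cyp, which are the sterol synthesis gene Cyp51 and the pseudogenes Cyp2d37-ps, Cyp4b1-ps2 and Cyp4f41-ps. The 6 libraries hold RNA from colon of C57BL/6J offspring aged 3 weeks. In 3 libraries, called maternal DSS 1 to 3, the dams had been given 1.5% dextran sulfate sodium (DSS), a sulfated polysaccharide that injures the colon lining, and in 3 libraries, called control 1 to 3, the dams had been given 0% DSS. The labels date the exposure from embryonic day 13 to embryonic day 19, whereas the design text of the series speaks of 5 days in the second trimester. Sample titles speak of 3 offspring, so that a library may hold 1 animal or a pool, and they name no litter, dam or sex. P-values thus rest on the variation among 6 libraries alone, which may be technical or shared by littermates, and the labels name no DSS given to the offspring. Values of a gene are listed in the order of library 1, 2 and 3 within each group.

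P450 enzymes are heme proteins that insert oxygen into small molecules, with electrons passed to them by a reductase in the endoplasmic reticulum or by ferredoxin in mitochondria. Members of the Cyp1, Cyp2 and Cyp3 families clear drugs, plant compounds and other foreign molecules, and several also oxidise arachidonic acid to signalling lipids. Cyp4 enzymes hydroxylate the far end of fatty acids and leukotrienes, while other families act on bile acids, steroids, vitamin D and retinoic acid. In the gut the epithelium carries most of these enzymes, and receptors such as PXR (Nr1i2) and the aryl hydrocarbon receptor (Ahr) adjust their genes to dietary and microbial compounds.

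Values are FPKM, fragments normalised to transcript length and to the size of the library, as deposited by the authors. The depth of the libraries is unknown. Colon identity was checked with the absorptive colonocyte markers, all 15 of which passed the filter and which summed to 14218 to 18505 FPKM in maternal DSS libraries and 11936 to 14532 FPKM in control libraries. Libraries also differed within the groups. Xist, the RNA of the inactive X chromosome, stood at 28.1 FPKM in maternal DSS 2 and 30.6 FPKM in control 3, and at 0.562 FPKM or less in the other 4 libraries. The Y-linked Ddx3y was the reverse, with 0.0687 FPKM in maternal DSS 2, 0.0547 FPKM in control 3 and at least 8.88 FPKM elsewhere. Small intestine markers (19 of 25 in the table, 15 tested, of which 5 were higher at an unadjusted p under 0.05, against 2.42% of all genes) summed to 181, 379 and 391 FPKM in maternal DSS 1, 2 and 3 and to 189, 154 and 190 FPKM in control 1, 2 and 3. A list of 13 squamous epithelium genes, chosen after values had been seen, summed to 316, 73.9 and 32.9 FPKM in maternal DSS 1, 2 and 3 and to 121, 111 and 107 FPKM in control 1, 2 and 3. The 6 hepatocyte markers in the table summed to 17, 23.8 and 26.3 FPKM in maternal DSS 1, 2 and 3 and to 30.3, 18.1 and 25.7 FPKM in control 1, 2 and 3. Of them Alb, Ahsg and Serpina1a were highest in control 1, whereas Ttr, Tat and Apoh were highest in maternal DSS libraries. Proximal colon markers (5 of 7 tested above 0) summed to 647, 1065 and 851 FPKM in maternal DSS 1, 2 and 3 and to 599, 501 and 718 FPKM in control 1, 2 and 3. At an unadjusted p under 0.05, 3 of them were higher, against 2.42% of all genes. All 6 tested distal colon markers had fold changes below 0, 2 of them at an unadjusted p under 0.05, against 5.41% of all genes called lower. Averaged as log2(FPKM + 1) minus the control mean, the proximal list was at least 0.26 in maternal DSS and at most 0.077 in control libraries. The distal list was at most -0.166 in maternal DSS and at least -0.156 in control libraries. On this averaged scale both lists thus ran along with the groups, the distal list by a narrow gap. The summed FPKM of each list overlapped between the groups. Distal sums were 64.3, 123 and 112 FPKM across the maternal DSS libraries and 105, 103 and 125 FPKM across the controls. Osr2 and Hoxb6 of the proximal list had fold changes below 0. The part of these markers in the P450 values was not tested.

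A single gene, Cyp2c55, made up 67.1% of the summed P450 FPKM averaged over the 6 libraries. By mean level 2 members reached 100 FPKM, 10 lay between 10 and 100, 19 between 1 and 10, and 20 below 1. Ranked by mean level, Cyp2c55 was followed by Cyp2c65, Cyp3a13, Cyp2d34, Cyp2c68, Cyp4f14, Cyp2s1 and Cyp2d26, and these 8 genes together held 88.3% of the sum. Cyp2c55 was also number 33 among all 20594 genes by mean FPKM, and Cyp2c65 number 547. Cyp2c55 and Cyp2c65 each stood clear of the next gene in every library. Cyp3a13 also lay above all lower-ranked members within each library, most narrowly in control 3 (47.5 FPKM against 46.9 FPKM for Cyp2d34). From Cyp2d34 down to Cyp4f13 the ranges of all neighbours over the 6 libraries overlapped, and neighbours changed places in some libraries, so that their order is not firm. Summed over the 51 members, the level was 1694, 1257 and 1719 FPKM in maternal DSS 1, 2 and 3 and 1697, 1474 and 1235 FPKM in control 1, 2 and 3. The groups overlapped, and maternal DSS 2 and control 3 were the lowest of their groups. Without Cyp2c55, a sum formed after values had been seen, the other 50 members came to 524, 498 and 559 FPKM in maternal DSS 1, 2 and 3 and 487, 454 and 467 FPKM in control 1, 2 and 3, with no overlap. After TPM scaling that sum was 1256, 1093 and 1134 in maternal DSS 1, 2 and 3 and 1146, 1124 and 1080 in control 1, 2 and 3, and the groups overlapped.

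**Figure D1:**
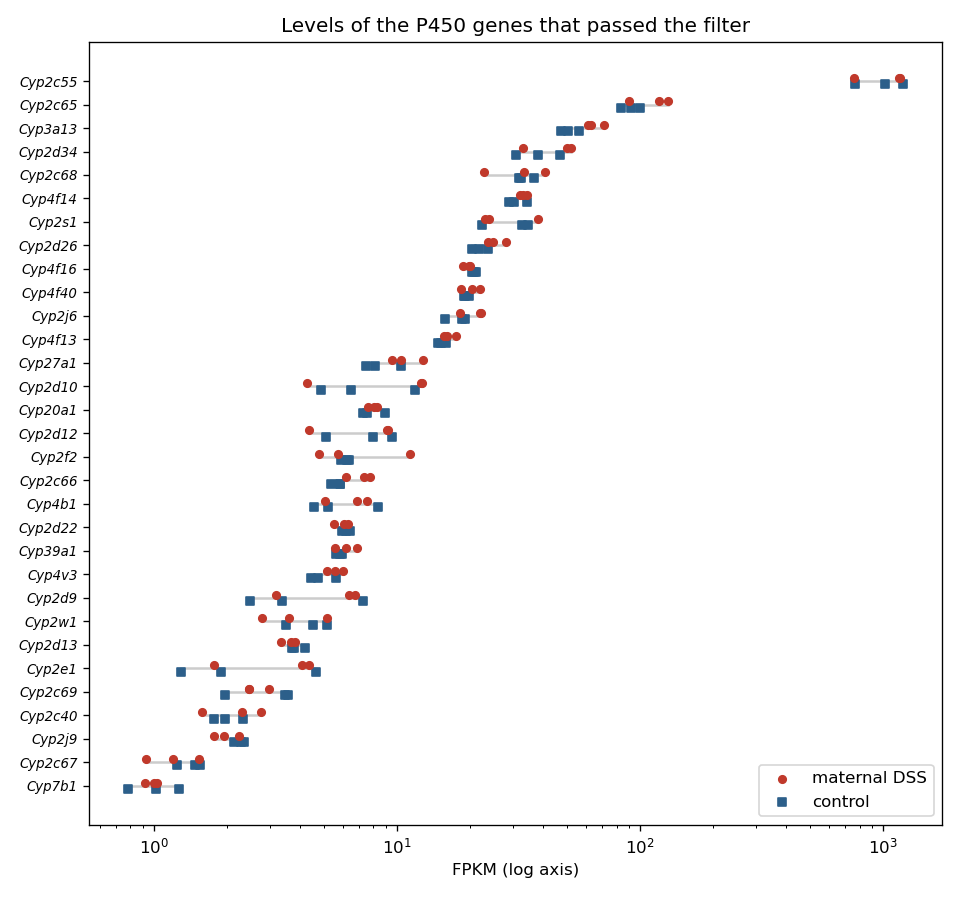
FPKM on a log axis of the 31 P450 genes that passed the filter, ordered by mean level, with 1 point per library (circles, maternal DSS; squares, control; grey line, range). Cyp2c55 lies near 1000 FPKM and apart from all other members, and the points of the groups mix for nearly every gene.

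To ask which P450 genes differed in the offspring of DSS-treated dams, genes with at least 1 FPKM in at least 3 libraries were fitted with limma on log2(FPKM + 1). This filter kept 13594 genes, 31 of them P450 members, and the other 20 members were described without a test. No gene passed a Benjamini-Hochberg adjusted p of 0.05 (0 of 13594, 0%), and the smallest adjusted p among the members was 0.62. At an unadjusted p under 0.05 there were 1064 genes (7.83%), among them 2 members, Cyp3a13 and Cyp2c66, both higher. For genes called higher alone the share over all genes was 2.42%, and for genes called lower it was 5.41%. Taken over both directions, a share of 2 in 31 lies near the 7.83% of all genes. Both members were higher, but counts this small cannot set the P450 genes apart. The groups did not overlap in 3 members, against 14.1% of all genes, namely in 2 higher members, again Cyp3a13 and Cyp2c66 (4.92% of all genes), and in 1 lower member, Cyp4f16 (9.14% of all genes).

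The log2 fold changes of the tested members lay between -0.17 (Cyp2w1) and 0.34 (Cyp3a13). Of them 20 were above 0 and 11 below, against 40.3% of all genes above 0, and their median was 0.085 against -0.037 for all genes. After TPM scaling, in which each library is divided by its own FPKM sum, 13 of the 31 were above 0, with a median of -0.012 against -0.14 for all genes. After median-ratio scaling 22 of the 31 were above 0, with a median of 0.13 against 0.0094 for all genes. The sign of the family median therefore depends on the scaling, whereas it lay above the median of all genes under each of these scalings. That difference was not tested.

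**Figure D2:**
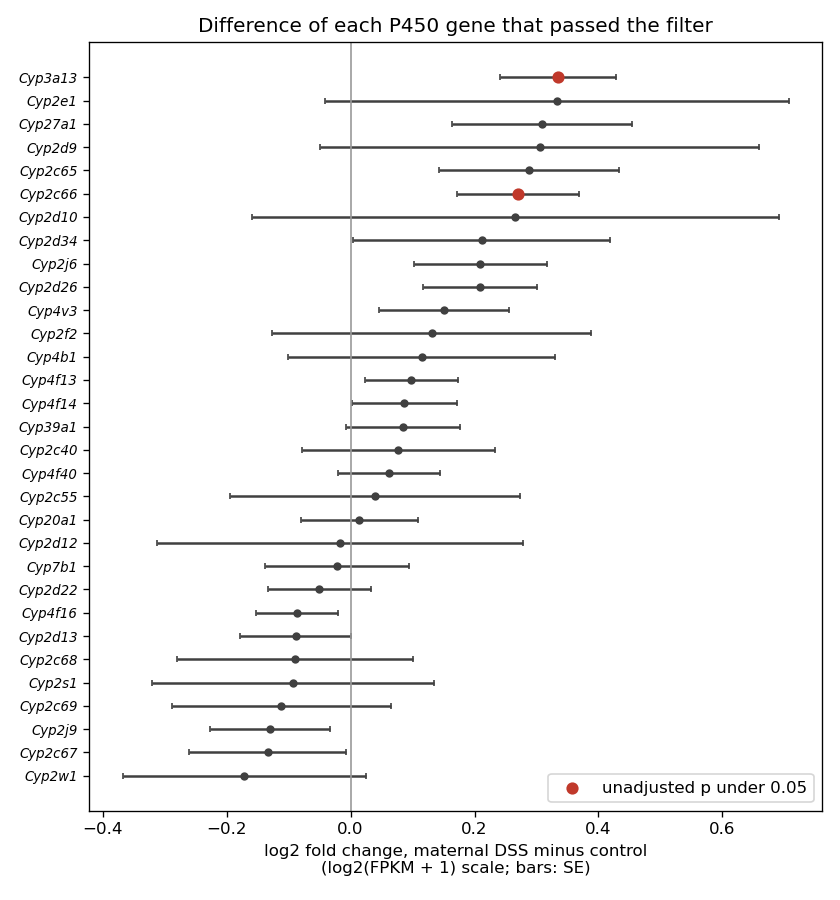
Log2 fold change of each of the 31 tested P450 genes, computed from log2(FPKM + 1) as maternal DSS minus control, with bars for the standard error. Cyp3a13 and Cyp2c66, marked in red, had an unadjusted p under 0.05, and no gene passed after adjustment.

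Cyp3a13 (chromosome 5, 137892933 to 137925610, GRCm38.p6), a drug-oxidising enzyme of the mouse intestine, had 61.3, 62.6 and 71.2 FPKM across the maternal DSS libraries and 55.9, 50.6 and 47.5 FPKM across the controls. Each maternal DSS value exceeded each control value, with the smallest gap between maternal DSS 1 and control 1. The means were 65 ± 5.39 FPKM in maternal DSS and 51.3 ± 4.25 FPKM in control (SD, n = 3 each), with a log2 fold change of 0.34 (SE 0.093) and a limma adjusted p = 0.62. The unadjusted p was 0.0082, and it stayed under 0.05 in all 15 alternative fits, with adjusted p from 0.017 (array weights) to 1.0 and from 0.15 in the others. The transcript shared no run of 50 bases with another gene in GENCODE M21. Cyp3a25, a liver Cyp3a gene and the only other member of the subfamily in the table, stayed between 0.0532 and 0.572 FPKM in all libraries. It was highest in maternal DSS 2 and 3 and shared 26.8% of its 50-base windows with other genes.

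**Figure D3:**
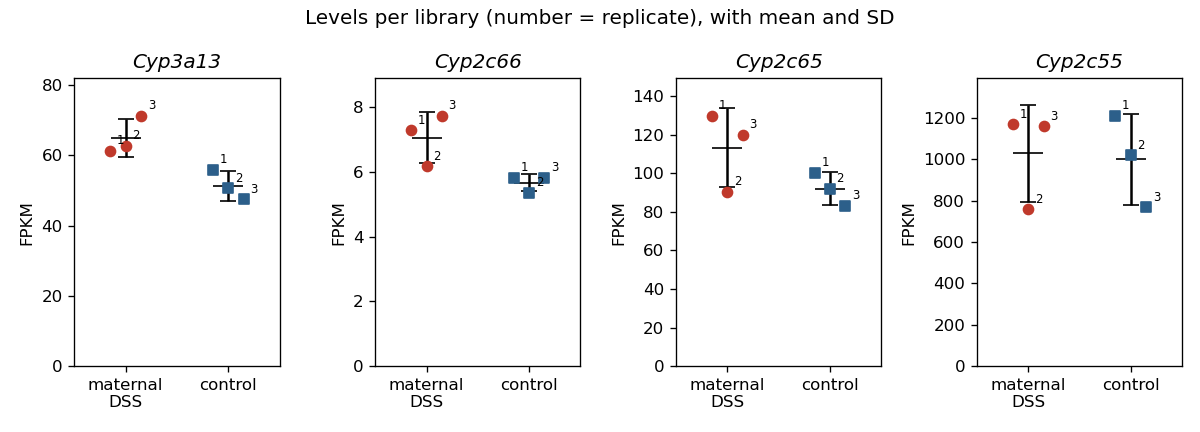
FPKM per library of Cyp3a13, Cyp2c66, Cyp2c65 and Cyp2c55, maternal DSS left and control right, with the mean, SD (bars) and replicate number. The groups separate for Cyp3a13 and Cyp2c66, and in Cyp2c55 maternal DSS 2 and control 3 lie below the other 4 libraries.

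The promoter of Cyp3a13 is shown because it was the member with the smallest unadjusted p. The window, from RefSeq on GRCm38.p6 (chr5:137921570-137921869, minus strand), runs from 250 bases before a start site to 50 bases after it, and that start site lies inside the annotated span of the gene. It was searched on both strands for 6 short motifs, namely the xenobiotic response element core GCGTG, the nuclear receptor core AGGTCA, the PXR core AGTTCA, the HNF4 core CAAAGT, the TATA box TATAAA and the glucocorticoid receptor core AGAACA. None of these letters occurred in it, which says nothing about regions outside the window.
Cyp3a13: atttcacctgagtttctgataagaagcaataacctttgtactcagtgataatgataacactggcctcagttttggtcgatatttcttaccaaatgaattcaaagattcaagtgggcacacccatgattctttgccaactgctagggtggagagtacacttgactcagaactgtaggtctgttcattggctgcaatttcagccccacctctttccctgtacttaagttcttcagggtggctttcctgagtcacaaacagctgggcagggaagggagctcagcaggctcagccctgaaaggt

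The Cyp2c genes lie on chromosome 19, all but Cyp2c23 in a cluster, and several oxidise arachidonic acid. Cyp2c55 (39006940 to 39042690), an abundant enzyme of the mouse colon, had 1170.1, 758.7 and 1160.5 FPKM across the maternal DSS libraries and 1210.3, 1020.4 and 768 FPKM across the controls. The groups overlapped throughout, with a log2 fold change of 0.040 (SE 0.23, limma adjusted p = 0.96) whose sign turned under TPM scaling. The low values were those of maternal DSS 2 and control 3, the libraries with high Xist, which differed from each other by a log2 ratio of -0.018. Among the other 4 libraries the log2 ratio of maternal DSS over control means was 0.063.

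Cyp2c65 (39061006 to 39093948), the second most abundant member, had 130, 90.4 and 120 FPKM across the maternal DSS libraries and 100, 92.1 and 83.2 FPKM across the controls. Maternal DSS 1 and 3 lay above every control and maternal DSS 2 within the controls (log2 fold change 0.29, SE 0.14, unadjusted p = 0.085, limma adjusted p = 0.62). Its close relative Cyp2c66 (39113898 to 39186756) had 7.29, 6.18 and 7.74 FPKM across the maternal DSS libraries and 5.83, 5.36 and 5.83 FPKM across the controls. Again each maternal DSS value exceeded each control value, with means of 7.07 ± 0.802 FPKM in maternal DSS and 5.67 ± 0.27 FPKM in control (SD, n = 3 each) and a log2 fold change of 0.27 (SE 0.098, unadjusted p = 0.028, limma adjusted p = 0.62). The unadjusted p of Cyp2c66 stayed under 0.05 in 9 of 15 alternative fits and was lost under TPM scaling, with array weights and without maternal DSS 1, maternal DSS 3, control 1 or control 2. Of the 50-base windows of Cyp2c66, 24% also occur in Cyp2c65, whose level was far higher, so the values of the 2 genes may share reads.

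Cyp2c68, Cyp2c69, Cyp2c40 and Cyp2c67 form a further group of near relatives, in which 43.3% to 72.1% of 50-base windows recur in another gene, and their single values are uncertain. Cyp2c68 had 22.9, 33.3 and 40.7 FPKM across the maternal DSS libraries and 36.7, 32.3 and 31.8 FPKM across the controls. Maternal DSS 1 was the lowest and maternal DSS 3 the highest library, so that the spread within the maternal DSS group exceeded the difference between groups. The other 3 had mean levels between 1.32 and 2.81 FPKM. Cyp2c23 stayed at or below 0.569 FPKM.

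Windows of the 3 Cyp2c genes next to each other at the start of the cluster, and of Cyp2c68, are shown because their genes lie side by side or nearby and differ widely in level. Capitals mark the TATA box letters, the HNF4 core and, in Cyp2c68, the reverse complement of the xenobiotic response element core. They come from RefSeq on GRCm38.p6, at chr19:39006769-39007068, plus strand (Cyp2c55), chr19:39060756-39061055, plus strand (Cyp2c65), chr19:39113648-39113947, plus strand (Cyp2c66) and chr19:39741052-39741351, minus strand (Cyp2c68).
Cyp2c55: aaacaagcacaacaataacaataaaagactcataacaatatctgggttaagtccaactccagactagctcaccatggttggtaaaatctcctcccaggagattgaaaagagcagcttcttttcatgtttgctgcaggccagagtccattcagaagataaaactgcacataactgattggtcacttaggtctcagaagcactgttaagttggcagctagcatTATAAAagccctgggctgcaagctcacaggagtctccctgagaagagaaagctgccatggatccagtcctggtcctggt
Cyp2c65: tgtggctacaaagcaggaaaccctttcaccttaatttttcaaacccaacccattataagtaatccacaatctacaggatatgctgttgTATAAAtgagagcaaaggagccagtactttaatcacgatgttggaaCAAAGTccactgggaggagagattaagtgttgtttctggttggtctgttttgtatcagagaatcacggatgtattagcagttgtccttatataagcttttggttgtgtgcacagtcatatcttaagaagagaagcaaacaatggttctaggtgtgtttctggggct
Cyp2c66: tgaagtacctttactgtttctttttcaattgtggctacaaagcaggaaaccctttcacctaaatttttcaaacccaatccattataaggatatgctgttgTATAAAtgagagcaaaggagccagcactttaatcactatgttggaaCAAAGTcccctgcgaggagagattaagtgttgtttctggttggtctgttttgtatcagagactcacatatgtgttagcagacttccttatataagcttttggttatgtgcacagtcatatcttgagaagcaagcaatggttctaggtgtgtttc
Cyp2c68: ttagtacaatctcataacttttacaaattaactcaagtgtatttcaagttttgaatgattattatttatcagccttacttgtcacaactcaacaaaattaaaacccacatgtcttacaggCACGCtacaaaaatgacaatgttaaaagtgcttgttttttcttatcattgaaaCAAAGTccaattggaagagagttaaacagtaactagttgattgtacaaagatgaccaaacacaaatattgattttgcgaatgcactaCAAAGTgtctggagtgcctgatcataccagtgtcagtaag

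The windows of Cyp2c65 and Cyp2c66 were 94.5% identical over 271 aligned bases, and that of Cyp2c55 was 64.6% identical to Cyp2c65. CAAAGT occurred in 6 of the 7 Cyp2c genes with a window and not in Cyp2c55, the gene with the highest level. Over all 32851 windows 14.4% held CAAAGT, and over the 40 members with a window 13 did. TATAAA occurred in 6 of the 7 Cyp2c genes, in 13 of the 40 members and in 13.6% of all windows. In Cyp2c55 it begins 29 bases before the RefSeq start. These matches describe letters shared by related genes and show no binding.

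Other members were also ordered by library in this way. In 7 of the 31 tested members both Xist-high libraries lay below the other 4 (9.53% of all tested genes), namely Cyp2c55, Cyp2c65, Cyp2c69, Cyp2j6, Cyp2s1, Cyp2w1 and Cyp2d22. In 2 members, Cyp2d9 and Cyp2e1, both lay above (3.66% of all tested genes). This split was made after their values had been seen, and the differences were not tested. Each group holds 1 Xist-high and 2 other libraries, so this order does not run along with maternal DSS. With Xist-high libraries as a block in the fit, 4 of the 31 members had an unadjusted p under 0.05, against 8.36% of all genes. Cyp2c65 and Cyp2j6 were those added, and no gene passed after adjustment.

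Cyp2s1, a P450 of epithelia outside the liver, had 38, 22.9 and 23.9 FPKM across the maternal DSS libraries and 32.7, 34.7 and 22.4 FPKM across the controls. Cyp2w1, known from human fetal and tumour colon, had 5.14, 2.78 and 3.6 FPKM across the maternal DSS libraries and 4.52, 5.16 and 3.48 FPKM across the controls. Both genes overlapped between groups. Cyp2j6, an arachidonic acid epoxygenase, had 22.2, 18.2 and 21.9 FPKM across the maternal DSS libraries and 19, 18.5 and 15.8 FPKM across the controls. Maternal DSS 1 and 3 were above every control and maternal DSS 2 was within their range (log2 fold change 0.21, SE 0.11, limma adjusted p = 0.62). Its relative Cyp2j9 stayed between 1.77 and 2.34 FPKM.

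The Cyp2d genes form a cluster on chromosome 15 whose enzymes oxidise many drugs, and several of them varied more between libraries than between groups. Cyp2d10 had 4.27, 12.7 and 12.6 FPKM across the maternal DSS libraries and 6.48, 4.85 and 11.8 FPKM across the controls. Maternal DSS 2, maternal DSS 3 and control 3 were high and the other 3 libraries low, giving a log2 fold change of 0.27 with a standard error of 0.42. Cyp2d9, known as a male-predominant gene of mouse liver, had 3.17, 6.7 and 6.32 FPKM across the maternal DSS libraries and 3.37, 2.47 and 7.23 FPKM across the controls. Again maternal DSS 2, maternal DSS 3 and control 3 were high. Cyp2d34, the most abundant of the subfamily, had 33, 52.2 and 50.1 FPKM across the maternal DSS libraries and 37.9, 30.8 and 46.9 FPKM across the controls, with the same libraries high. Cyp2d12 had 4.34, 9.13 and 9.21 FPKM across the maternal DSS libraries and 7.96, 5.08 and 9.5 FPKM across the controls, and here control 1 stood near the high libraries. Cyp2d11, below the filter, was likewise highest in maternal DSS 2, control 3 and maternal DSS 3, at 0.732, 0.674 and 0.553 FPKM.

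Cyp2d26, Cyp2d22 and the transcribed pseudogene Cyp2d13, in the same cluster, did not share this order. Cyp2d26 had 28, 23.6 and 24.8 FPKM across the maternal DSS libraries and 20.3, 21.7 and 23.6 FPKM across the controls, and maternal DSS 1 was its highest library. Its log2 fold change was 0.21 (SE 0.092, unadjusted p = 0.056, limma adjusted p = 0.62). Cyp2d22 stayed between 5.49 and 6.4 FPKM and Cyp2d13 between 3.32 and 4.18 FPKM. Summed over its 8 members, the subfamily stood at 82.9, 114 and 113 FPKM across the maternal DSS libraries and 86.7, 75.3 and 109 FPKM across the controls.

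Outside the cluster, Cyp2e1, the ethanol-oxidising P450, followed the order of Cyp2d10, with 1.76, 4.34 and 4.05 FPKM across the maternal DSS libraries and 1.29, 1.89 and 4.63 FPKM across the controls. Markers of several other cell types had an order close to this one. The 6 adipocyte markers summed to 172, 216 and 196 FPKM in maternal DSS 1, 2 and 3 and to 115, 151 and 228 FPKM in control 1, 2 and 3. Among them Adipoq stood at 3.68, 12.3 and 10.2 FPKM in maternal DSS 1, 2 and 3 and at 3.98, 4.7 and 11.5 FPKM in control 1, 2 and 3. Other members of this list went another way. Car3 was highest in maternal DSS 1, at 72.8 FPKM. Lep, at most 0.569 FPKM, was lower in all maternal DSS libraries than in any control. The 12 macrophage and leukocyte markers summed to 160, 266 and 340 FPKM in maternal DSS 1, 2 and 3 and to 160, 187 and 268 FPKM in control 1, 2 and 3. Maternal DSS 2, maternal DSS 3 and control 3 were highest in both sums. They were also highest in the sum of the 15 colonocyte markers, at 16044, 18505 and 14532 FPKM, with control 3 just above maternal DSS 1 at 14218 FPKM. Single members of the colonocyte and leukocyte lists also went another way. Car1, the highest colonocyte marker, stood at 7014 FPKM in maternal DSS 1 and was lowest in control 3, at 4528 FPKM. Cx3cr1 of the leukocyte list was lowest in maternal DSS 3, at 2.25 FPKM. The 9 goblet cell markers summed to 7864, 10091 and 10511 FPKM in maternal DSS 1, 2 and 3 and to 8301, 8116 and 9638 FPKM in control 1, 2 and 3, but their member Muc2 ran the other way, at 1002, 579 and 518 FPKM in maternal DSS 1, 2 and 3 and 831, 691 and 655 FPKM in control 1, 2 and 3. The part of cell makeup in the Cyp2d and Cyp2e1 values was not tested, and in bulk tissue fewer cells of a type and less RNA per cell cannot be told apart.

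**Figure D4:**
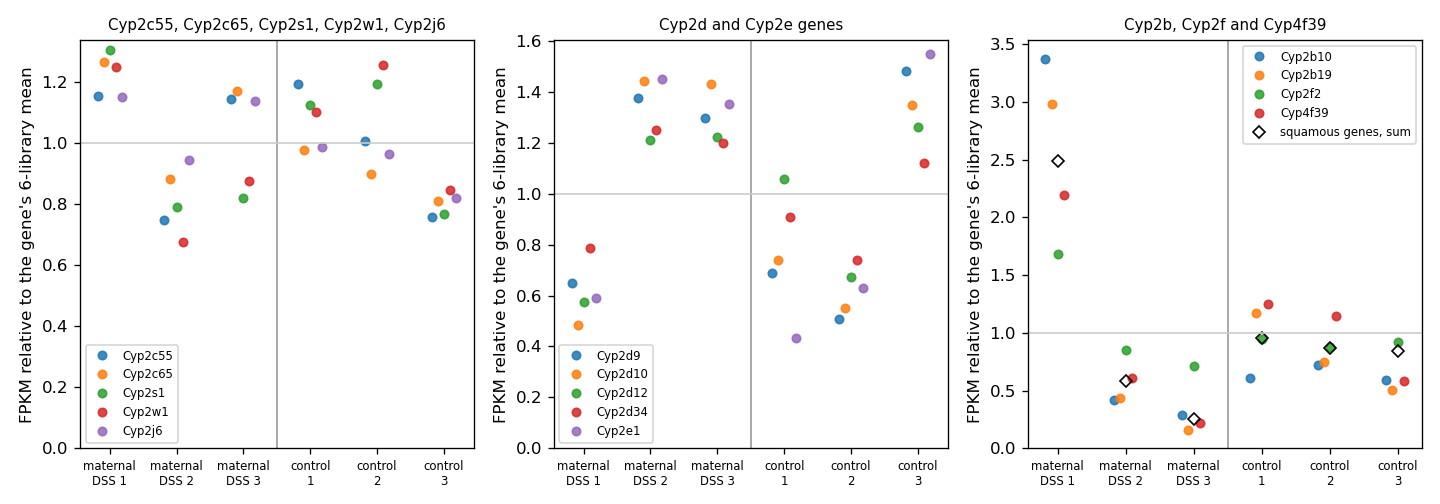
FPKM of single P450 genes in each library, divided by the gene's mean over the 6 libraries, in 3 sets, with maternal DSS left of the line and control right. Left, maternal DSS 2 and control 3 are low; middle, maternal DSS 2, maternal DSS 3 and control 3 are high; right, maternal DSS 1 is high, as is the summed level of the squamous epithelium genes (open diamonds).

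Windows of Cyp2d9 and Cyp2d10 are shown because both genes were high in the same 3 libraries. Of the 50-base windows of Cyp2d10 and Cyp2d9, 40.5% and 29% recur in some other gene, most often in Cyp2d11 (25.9%) for Cyp2d10 and in Cyp2d12 (10.7%) for Cyp2d9, and the part of shared reads in these values was not tested. The windows (chr15:82452127-82452426, plus strand for Cyp2d9 and chr15:82407145-82407444, minus strand for Cyp2d10, RefSeq on GRCm38.p6) were 85.1% identical over 296 aligned bases. Capitals mark the reverse complement of the TATA box letters and, in Cyp2d10, the glucocorticoid receptor core. TATAAA on either strand occurred in all 4 Cyp2d genes with a window and AGAACA in 3 of the 4, against 13.6% and 19% of all windows.
Cyp2d9: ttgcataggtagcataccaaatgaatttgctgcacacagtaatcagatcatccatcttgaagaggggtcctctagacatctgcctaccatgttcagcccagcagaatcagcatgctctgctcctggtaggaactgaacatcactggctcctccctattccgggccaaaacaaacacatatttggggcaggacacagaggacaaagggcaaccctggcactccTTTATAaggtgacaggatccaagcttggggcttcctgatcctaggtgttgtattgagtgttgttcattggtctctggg
Cyp2d10: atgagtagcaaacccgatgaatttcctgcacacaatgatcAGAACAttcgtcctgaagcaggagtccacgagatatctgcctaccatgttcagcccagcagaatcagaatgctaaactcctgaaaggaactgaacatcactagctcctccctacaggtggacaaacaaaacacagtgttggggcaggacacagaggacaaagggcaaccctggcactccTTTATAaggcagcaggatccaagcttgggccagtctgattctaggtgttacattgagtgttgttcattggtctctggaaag

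A further set of P450 genes was highest in maternal DSS 1. Cyp2b10, the classic target of the receptor CAR (Nr1i3), had 1.36, 0.171 and 0.116 FPKM across the maternal DSS libraries and 0.245, 0.292 and 0.238 FPKM across the controls. Cyp2b19, a keratinocyte arachidonic acid epoxygenase, had 1.08, 0.157 and 0.0562 FPKM across the maternal DSS libraries and 0.425, 0.272 and 0.184 FPKM across the controls. Maternal DSS 1 was the highest and maternal DSS 3 the lowest library for both genes. Cyp4f39, a fatty acid hydroxylase of the skin barrier, had 1.02, 0.282 and 0.103 FPKM across the maternal DSS libraries and 0.582, 0.534 and 0.273 FPKM across the controls.

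Cyp2f2, a lung P450 that activates naphthalene, had 11.3, 5.71 and 4.78 FPKM across the maternal DSS libraries and 6.36, 5.86 and 6.2 FPKM across the controls. It passed the filter, with a log2 fold change of 0.13 (SE 0.26, limma adjusted p = 0.86) that became -0.20 without maternal DSS 1. The squamous epithelium genes had a like order, with Krt5 at 39.7, 4.75 and 1.59 FPKM across the maternal DSS libraries and 11.7, 7.63 and 8.78 FPKM across the controls. Maternal DSS 1 was again highest and maternal DSS 3 lowest for Krt5. These 4 P450 genes were picked after values had been seen, from 13 members that were highest in maternal DSS 1. Among the others, Cyp17a1 stood in maternal DSS 1 at 3.71 times its mean over the 6 libraries, more than any of the 4, and Cyp1a1 at 2.52 times. The part of squamous tissue in these values was not tested.

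The Cyp4f genes, as a sum, varied little between libraries. The 9 Cyp4f members summed to 91.8, 90.6 and 93.8 FPKM across the maternal DSS libraries and 92.5, 87.2 and 87.6 FPKM across the controls, so that the highest library was 1.08 times the lowest. Cyp4f14, which hydroxylates leukotriene B4, had 31.9, 34.4 and 32.9 FPKM across the maternal DSS libraries and 34.4, 30.3 and 28.8 FPKM across the controls. Cyp4f40 and Cyp4f13 lay between 18.3 and 21.8 FPKM and between 14.8 and 17.6 FPKM, with overlapping groups.

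Cyp4f16 was the single tested member lower in all maternal DSS libraries, with 18.7, 19.7 and 20 FPKM across the maternal DSS libraries and 20.7, 20.3 and 21.1 FPKM across the controls. The gap was narrow, between maternal DSS 3 and control 2, and the log2 fold change was -0.086 (SE 0.066, unadjusted p = 0.23, limma adjusted p = 0.67). After TPM scaling it was -0.20, with an unadjusted p = 0.047 and a limma adjusted p = 0.53. Of its 50-base windows 26.5% recur in another gene, mostly Cyp4f37. Cyp4v3, the mouse relative of a human P450 gene of inherited corneal and retinal disease, had 5.13, 5.53 and 5.99 FPKM across the maternal DSS libraries and 4.41, 4.74 and 5.6 FPKM across the controls. Cyp4b1 ranged from 4.56 to 8.38 FPKM, both in control libraries. Cyp4f18, a leukotriene-degrading enzyme of leukocytes, stayed below the filter. It had 0.602, 0.956 and 1.3 FPKM across the maternal DSS libraries and 0.403, 0.477 and 0.9 FPKM across the controls. This order was close to that of the summed leukocyte markers.

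Of the genes for sterols and bile acids, Cyp27a1, the mitochondrial enzyme that oxidises the cholesterol side chain, had 9.52, 10.4 and 12.8 FPKM across the maternal DSS libraries and 8.1, 7.42 and 10.3 FPKM across the controls. Control 3 lay among the maternal DSS libraries (log2 fold change 0.31, SE 0.15, unadjusted p = 0.070, limma adjusted p = 0.62). Cyp39a1, an oxysterol hydroxylase, lay between 5.57 and 6.86 FPKM and Cyp7b1, which acts on oxysterols and neurosteroids, between 0.782 and 1.27 FPKM. Cyp46a1, the brain cholesterol hydroxylase, stayed at or below 0.188 FPKM. Cyp20a1, a P450 without an assigned substrate, lay between 7.23 and 8.93 FPKM.

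Several members of other known roles lay below the filter, among them Cyp1a1 and Cyp1b1, which are targets of the aryl hydrocarbon receptor. Cyp1a1 and Cyp1b1 had at most 0.386 and 0.24 FPKM in any library, both in maternal DSS 1. The vitamin D enzyme genes Cyp2r1, which activates the vitamin in the liver, and Cyp27b1, its kidney partner, had at most 0.871 and 0.162 FPKM. Cyp26b1, which degrades retinoic acid, had at most 0.594 FPKM, and the steroidogenic Cyp11a1 and Cyp17a1 at most 0.29 FPKM (maternal DSS 2) and 0.432 FPKM (maternal DSS 1). The remaining low members Cyp2u1, Cyp4f15, Cyp4f17, Cyp4f37 and Cyp4x1 lay between 0.0954 and 1.1 FPKM. None of the 20 members below the filter had groups that did not overlap in FPKM, and no fold change is drawn from these levels. After TPM scaling Cyp4f37 was lower in all maternal DSS libraries, by a narrow gap (1.316 in maternal DSS 1 against 1.319 in control 1). The same share over all genes below the filter was not computed. Of the 20 members below the filter, 7 were highest in maternal DSS 1, and the share of all genes highest in that library was not computed.

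No gene of the partner lists passed after adjustment. Of 12 tested genes for electron donors and heme supply, 8 were above 0 and 4 below, with a median log2 fold change of 0.049. None was called higher and 1 lower at an unadjusted p under 0.05, against 2.42% and 5.41% of all genes. That gene, Alas1, the first and rate-limiting step of heme synthesis, had 32.5, 29.6 and 34.6 FPKM across the maternal DSS libraries and 38.7, 38 and 40.9 FPKM across the controls. Each maternal DSS value was below each control value (log2 fold change -0.28, SE 0.080, unadjusted p = 0.010, limma adjusted p = 0.62), and the unadjusted p stayed under 0.05 in all 15 alternative fits. Cyb5a, the cytochrome b5 that passes electrons to some P450 enzymes and the highest of the list, had 74.3, 88 and 102 FPKM across the maternal DSS libraries and 86, 73.7 and 90.4 FPKM across the controls. Por, the reductase that serves every P450 of the endoplasmic reticulum, stayed between 44.2 and 61 FPKM, with both ends in the maternal DSS group.

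Among 21 tested receptors and sensors that control P450 genes, 9 were above 0 and 12 below (median log2 fold change -0.020), and at an unadjusted p under 0.05 there were 2 higher and 4 lower genes, against 2.42% and 5.41% of all genes. Nr1i2, which encodes PXR, had 24.2, 23.9 and 26.3 FPKM across the maternal DSS libraries and 22.5, 21.6 and 20.4 FPKM across the controls, without overlap (log2 fold change 0.20, SE 0.074, limma adjusted p = 0.62). Its log2 fold change was 0.092 after TPM scaling, and its unadjusted p stayed under 0.05 in 11 of 15 alternative fits. Nr1h4, the bile acid receptor FXR, had 39.6, 47.9 and 48.5 FPKM across the maternal DSS libraries and 33.1, 31.1 and 41.7 FPKM across the controls. Maternal DSS 1 lay below control 3, and maternal DSS 2 and 3, with the high sums of small intestine markers, were the highest. Its unadjusted p likewise stayed under 0.05 in 11 of 15 alternative fits.

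The retinoic acid receptor genes Rara and Rarg were lower in all 3 maternal DSS libraries. Rara had 5.02, 4.31 and 4.61 FPKM across the maternal DSS libraries and 6.34, 6.75 and 5.93 FPKM across the controls (log2 fold change -0.38, SE 0.090, limma adjusted p = 0.62). Rarg had 6.15, 3.98 and 4.12 FPKM across the maternal DSS libraries and 6.39, 6.78 and 6.35 FPKM across the controls (log2 fold change -0.40, SE 0.15). Tiparp, a target and repressor of the aryl hydrocarbon receptor, and Nr5a2, a regulator of bile acid genes, were lower by log2 fold changes of -0.25 (SE 0.10) for Tiparp and -0.22 (SE 0.096) for Nr5a2, both without overlap of the groups. The unadjusted p stayed under 0.05 in all 15 alternative fits for Rara, in 11 for Rarg, in 7 for Tiparp and in 5 for Nr5a2. Ahr itself lay between 2.85 and 4.39 FPKM with overlapping groups. Hnf4a, the epithelial factor with the highest level in the list, had 127, 148 and 122 FPKM across the maternal DSS libraries and 141, 138 and 141 FPKM across the controls. None of these passed after adjustment.

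Of 19 tested other oxidative enzymes of foreign compound metabolism, 17 were above 0 and 2 below, with a median log2 fold change of 0.12, against 40.3% of all genes above 0. This list was not recounted after TPM scaling, which took the median of all genes from -0.037 to -0.14 and turned the sign of its highest gene, Adh1. An unadjusted p under 0.05 was found for 1 gene in each direction, against 2.42% of all genes higher and 5.41% lower. Ces1d, a carboxylesterase, had 20.3, 20.3 and 31.2 FPKM across the maternal DSS libraries and 15, 17.3 and 18.4 FPKM across the controls (log2 fold change 0.45, SE 0.17, limma adjusted p = 0.62). Fmo4, a flavin monooxygenase, had 1.03, 0.97 and 1.14 FPKM across the maternal DSS libraries and 1.5, 1.2 and 1.64 FPKM across the controls (log2 fold change -0.25, SE 0.11). The unadjusted p stayed under 0.05 in 13 of 15 alternative fits for Ces1d and in 6 of 14 for Fmo4. Adh1, an alcohol dehydrogenase and the highest of the list, had 161, 345 and 300 FPKM across the maternal DSS libraries and 225, 198 and 310 FPKM across the controls, with the same 3 libraries high as for Cyp2d10.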

How the data were processed

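RNA of 6 colon libraries, 3 maternal DSS and 3 control, was prepared with a kit for stranded mRNA sequencing, according to protocols in the labels. The authors deposited 1 FPKM value for each of 20594 genes in each library. Build mm10 and the tools HISAT2 2.1.0, StringTie 2.1.3b, Trimmomatic 0.38, FastQC 0.11.7 and DESeq2 are named, without role or order, in the submitters' processing notes. No source used here gives the annotation. Since FPKM is scaled to each library's total, a shift in a few abundant RNAs moves many genes. The table holds no counts, so the depth and the counting error are unknown, and errors are standard errors or SDs over libraries.

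Libraries were taken to their groups by the labels. Genes with at least 1 FPKM in at least 3 libraries were fitted with limma 3.58.1 in R 4.3.3 on log2(FPKM + 1), with a mean-variance trend and group alone, and p-values were adjusted over all 13594 genes by the Benjamini-Hochberg method. Fold changes on this scale, maternal DSS over control, are understated for low genes. The fit was tested on simulated data. Alternatives were a pseudocount of 0.1, no filter, a filter at 5 FPKM, median-ratio and TPM scaling, array weights, no variance trend, the replicate number as a block, each library left out and, added after seeing the data, Xist-high libraries (at least 1 FPKM) as a block.

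Named were the 15 highest members, those with an unadjusted p under 0.05 or groups that did not overlap, the highest of each subfamily with a summed mean of at least 1 FPKM, and genes of the partner lists by the same p or the highest level. Other members, Por, Ahr, Ddx3y, Xist and Krt5 were named after their values were seen. The members and lists were chosen with earlier results of these data known. Coordinates come from RefSeq on GRCm38.p6 (mm10), in which all 51 members were found. Shared 50-base windows were counted over GENCODE M21 transcripts for 50 members, on the sense strand. Promoter windows of 300 bases were found for 40 members.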

Additional observations from a re-analysis of the deposited data

How the results depend on the processing

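With 3 libraries a group and unknown depth, low members and small differences cannot be resolved. The count of genes with an adjusted p under 0.05 was 0 in the reported fit, 4933 with array weights, where the weights ran between 0.249 (maternal DSS 1) and 5.47 (maternal DSS 2), and 0 to 12 with 1 library left out (12 without maternal DSS 1, none of them a P450 gene). The count of P450 members with an unadjusted p under 0.05 was 2 of 31, against 7.83% of all genes. It became 5 after median-ratio scaling (8.27% of all genes) and 4 with the Xist block (8.36%). With array weights it was 14 (10 of them past an adjusted p of 0.05), where 49.9% of all genes had such a p. With 1 library left out it was 1 to 5. The cause was not tested. The count was 5 without maternal DSS 2 (4.62% of all genes) and without control 3 (9.64%), and 4 without maternal DSS 1 (24.8%). It was 1 in the fits lacking control 1 (3.6%), control 2 (2.95%) or maternal DSS 3 (4.64%). After TPM scaling it was again 2 (8.1% of all genes), with Cyp4f16 in place of Cyp2c66. The summed P450 level (log2 difference 0.081) stayed within its spread in all settings, at -0.030 after TPM scaling and from 0.0026 to 0.23 in all but 1 of the left-out fits (-0.037 without control 3).

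With the replicate number as a block, 4 members had an unadjusted p under 0.05, against 12.3% of all genes, and no gene passed after adjustment. Libraries sharing a number did not all deviate together (correlations of 0.28, -0.38 and 0.40), and not every one correlated best with its own number. With so few libraries this check cannot show whether a number stands for a shared litter or batch, which the labels do not name.

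Of 35 named genes 20 kept their sign in every setting. TPM scaling turned the sign of Cyp2c55 (-0.072), Cyp4f14 (-0.022), Cyp4f40 (-0.046), Cyp4f13 (-0.0076), Cyp20a1 (-0.090), Cyp39a1 (-0.012), Cyb5a (-0.040) and Adh1 (-0.019). Median-ratio scaling turned Cyp7b1 (0.0036). Array weights turned Cyp2c55 (-0.41), Cyp2c65 (-0.0078), Cyp4f40 (-0.050), Cyp20a1 (-0.031), Cyp2f2 (-0.058), Cyp39a1 (-0.013), Cyp7b1 (0.057) and Hnf4a (0.055). Leaving out 1 library gave ranges that crossed 0 for Cyp2c55, Cyp2c68, Cyp2s1, Cyp20a1, Cyp2f2, Cyp4b1, Cyp7b1, Cyb5a and Adh1. The ranges were -0.14 to 0.25 for Cyp2c55, -0.27 to 0.13 for Cyp2c68, -0.32 to 0.034 for Cyp2s1, -0.039 to 0.096 for Cyp20a1, -0.20 to 0.35 for Cyp2f2, -0.037 to 0.34 for Cyp4b1, -0.11 to 0.064 for Cyp7b1, -0.038 to 0.19 for Cyb5a, -0.12 to 0.42 for Adh1.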
